A study of Mus musculus with 53 samples.

Results

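The sphingolipid and myelin glycolipid enzymes described here are 10 genes, named from a list of enzymes that make or break down the sphingolipids of myelin, out of 49568 genes with values in mouse sciatic nerve. Ugt8a, Gal3st1 and Fa2h make the galactolipids of myelin, Sptlc1, Sptlc2, Cers2 and Degs1 make ceramide, and Sgms1, Sgms2 and Smpd1 make or break down sphingomyelin. They were listed by name, and the rule used none of their values.

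RNA-seq was performed on 53 sciatic nerves of male C57BL/6J mice in a study of peripheral neuropathy in prediabetes and type 2 diabetes and of its response to dietary reversal. SD mice were fed a standard diet, with 13% of kcal from fat per the labels, where the study's paper gives a lower share. HFD mice, the prediabetes model, received a high-fat diet with 60% of kcal from fat from 5 weeks of age. HFD-STZ mice, the diabetes model, received the same high-fat diet and streptozotocin, a toxin of insulin-producing cells, at 12 weeks of age in doses of 75 and then 50 mg/kg. HFD-DR mice were fed as HFD mice, and HFD-STZ-DR mice were treated like HFD-STZ mice, until both returned to the standard diet at 16 weeks of age for 8 weeks. Nerves were taken at 16 weeks of age from 5 SD, 7 HFD and 5 HFD-STZ mice, and at 24 weeks from 8 SD mice, 7 HFD mice and 8 HFD-STZ mice, with 7 mice under dietary reversal in the prediabetes model and 6 in the diabetes model. SD after a ± sign stands for the standard deviation. Samples of a group came from different mice, so the tests use the spread between samples. Differences between mice and technical noise are not separated in it. Values are on the log2 scale as deposited, on which a difference of 1 is a factor of 2. The depth behind each value is unknown, because no read counts were used here.

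Sphingolipid synthesis begins when serine palmitoyltransferase joins serine to a fatty acyl chain, and ceramide, the product of a few further steps, is the branch point of the pathway. Ceramide that receives galactose becomes galactosylceramide, which can be sulphated to sulphatide, and ceramide that receives phosphocholine becomes sphingomyelin. In peripheral nerve, Schwann cells make these lipids in large amounts when they build myelin, and galactosylceramide and sulphatide with very long or hydroxylated acyl chains are typical of the sheath.

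All 10 genes passed the filter on low values, a mean of at least log2 of 10. Their mean deposited values over the 53 samples ran from 9.91 for Sgms2 to 15.39 for Ugt8a. The 10 genes were ordered by level only after the log2 exon length in kb was subtracted. This was done because the sources do not state whether the deposited values account for length. The study's methods name FPKM, a measure scaled by length, but no source ties the deposited log2 values to it, and the order holds only if they are not yet scaled by length. On this per-kb log2 scale, Fa2h was highest at 13.60, followed by Cers2 at 13.33, Ugt8a at 13.21 and Degs1 at 12.52. Gal3st1 had a per-kb level of 11.59, Smpd1 of 10.72 and Sptlc2 of 10.13. The lowest per-kb levels were those of Sptlc1 at 9.34, Sgms1 at 9.25 and Sgms2 at 7.27. Per kb, the levels of the galactolipid enzymes lay above those of the sphingomyelin enzymes, whereas on the deposited log2 scale Gal3st1, at 12.62, lay below Sgms1, at 12.65. By the GENCODE annotation of build GRCm38, Ugt8a lies at chr3:125865271-125938619, Fa2h at chr8:111345135-111393824, Sptlc2 at chr12:87305058-87388355, Sptlc1 at chr13:53332748-53377397, Degs1 at chr1:182275772-182282804, Sgms1 at chr19:32122727-32389714 and Sgms2 at chr3:131318985-131491411, on the minus strand. Gal3st1 lies at chr11:3983636-3999326, Cers2 at chr3:95314791-95323599 and Smpd1 at chr7:105554360-105558389, on the plus strand. Leaving aside the overlaps on the other strand given next, no 100-base stretch of any member's exons was found in another gene. The exons of Cers2 share 144 bases with 6330562C20Rik and 75 bases with Setdb1 on the other strand, and those of Sgms1 share 10 bases with 2700046G09Rik. Reads of overlapping genes cannot be told apart without strand information.

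Promoters are shown for Ugt8a, of the galactolipid branch, and for Sptlc2 and Cers2, of ceramide synthesis, since the values of these members varied together across samples. The sequences are the 250 bases before the start site in RefSeq, build GRCm38.p6, written 5′ to 3′ on the strand of the gene. RefSeq entries were matched for 9 of the 10 members, with 20 start sites in all, and none was matched for Fa2h. Capitals mark the E-box CACGTG, which reads the same on both strands. The Ugt8a sequence lies at chr3:125938653-125938902 on the minus strand, that of Sptlc2 at chr12:87388356-87388605 on the minus strand, and that of Cers2, at start site 1, at chr3:95314940-95315189 on the plus strand.
Ugt8a promoter: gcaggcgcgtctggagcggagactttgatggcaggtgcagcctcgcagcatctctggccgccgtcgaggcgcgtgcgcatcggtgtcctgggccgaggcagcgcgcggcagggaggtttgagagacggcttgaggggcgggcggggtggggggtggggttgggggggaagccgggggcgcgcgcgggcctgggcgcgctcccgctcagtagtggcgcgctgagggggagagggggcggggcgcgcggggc
Sptlc2 promoter: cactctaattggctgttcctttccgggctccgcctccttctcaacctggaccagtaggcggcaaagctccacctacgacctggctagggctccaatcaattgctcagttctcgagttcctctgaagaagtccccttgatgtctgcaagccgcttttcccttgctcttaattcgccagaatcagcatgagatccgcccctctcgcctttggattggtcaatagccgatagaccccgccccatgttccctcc
Cers2 promoter: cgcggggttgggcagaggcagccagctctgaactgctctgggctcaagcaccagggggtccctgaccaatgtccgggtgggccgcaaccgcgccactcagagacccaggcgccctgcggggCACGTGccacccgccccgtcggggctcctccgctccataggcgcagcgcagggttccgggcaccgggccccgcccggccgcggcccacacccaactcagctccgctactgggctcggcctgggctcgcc
The shares of bases that are G or C were 76.8% for Ugt8a, 55.2% for Sptlc2 and 74.8% for Cers2. The motifs were chosen after the sequences were seen and searched on both strands in these windows. The E-box is in 6.02% of 32851 promoters of this length, and among members it was found before Cers2 start site 1, Degs1 and Sgms2 start site 5. The letters ACAAAG, or CTTTGT on the other strand, which SOX factors bind, are in 16.5% of all promoters and were found before Sptlc1, Sgms1 start site 3 and Sgms2 start site 6. The letters GCGTGGG, or CCCACGC on the other strand, which EGR factors bind, are in 4.30% of all promoters and were found before no member. A match describes letters and not a bound site.

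A few libraries stood apart from the rest. HFD-STZ 24wk replicate 7 had 23 genes with values above 22, among them genes of sensory neurons, and a neuron marker score of 12.84 where the median of its group was 6.99. Its median Pearson's r with the other samples, over 18069 genes, was 0.941, the lowest of the 53. A median r under 0.97 was also found for HFD-STZ-DR 24wk replicate 4 at 0.954, SD 24wk replicate 5 at 0.962 and HFD-DR 24wk replicate 5 at 0.965. These last samples had skeletal muscle marker scores of 16.24, 17.07 and 15.72, where scores over all samples ran from 6.52 to 17.07. SD 24wk replicate 5 had the lowest Ugt8a, Gal3st1, Fa2h, Sptlc2, Cers2 and Degs1 values of its group. HFD-STZ-DR 24wk replicate 4 was lowest in its group for Ugt8a, Gal3st1, Fa2h, Sptlc1, Sptlc2, Cers2, Degs1, Sgms2 and Smpd1. The limma fits, the member correlations and the marker score tests were computed with and without these 4 samples, the versions without them being added after the data were seen. No pair of the 1378 sample pairs held identical values.

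**Figure D1:**
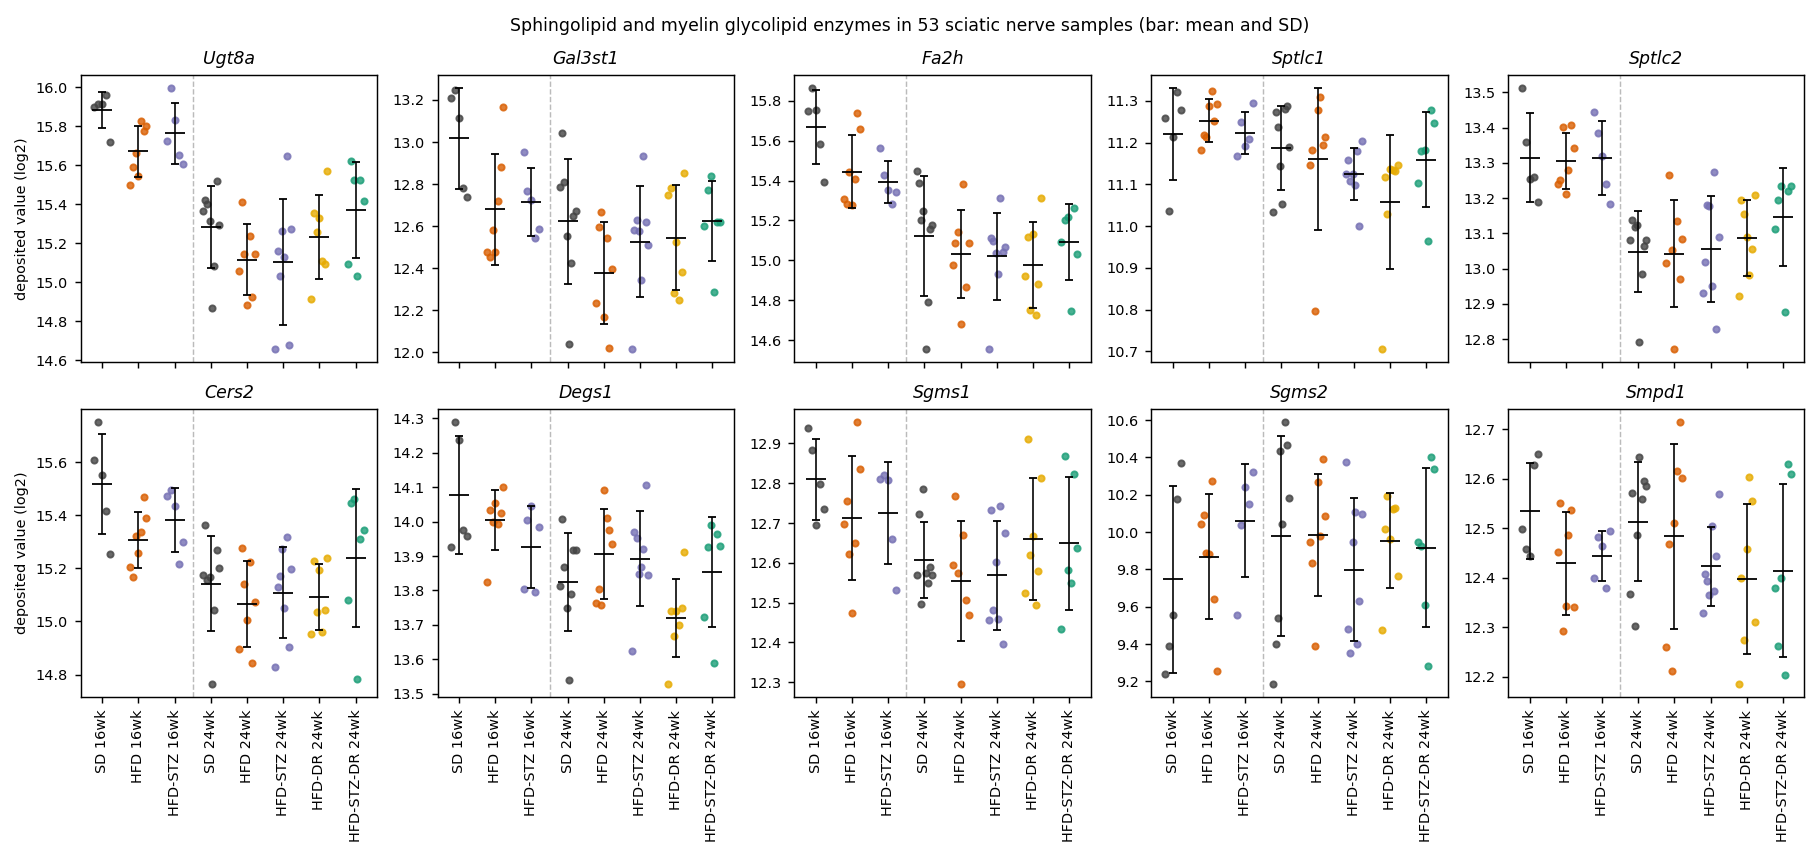
Deposited log2 values of the 10 genes in each of the 53 samples, by group, with the 16-week groups left of the dashed line and the 24-week groups right of it. Points are samples and bars are the group mean and SD; Ugt8a ran from 15.50 to 16.00 at 16 weeks and from 14.66 to 15.65 at 24 weeks.

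Ugt8a, which transfers galactose to ceramide, had the smallest adjusted p of the members in the age comparisons. In SD mice at 16 weeks its values were 15.90, 15.91, 15.91, 15.96 and 15.72, and at 24 weeks they had a lowest value of 14.87, a median of 15.34 and a highest value of 15.52. In HFD mice the lowest, median and highest values were 15.50, 15.66 and 15.82 at 16 weeks and 14.89, 15.14 and 15.41 at 24 weeks. In HFD-STZ mice the 16-week values were 15.73, 16.00, 15.83, 15.65 and 15.61, and the 24-week values had a lowest value of 14.66, a median of 15.15 and a highest value of 15.65. All 8 SD and all 7 HFD samples at 24 weeks were thus below every 16-week sample of the same diet, and 7 of 8 HFD-STZ samples were, the exception being replicate 6. The share of all genes that separate in this way was not computed. Here and for the other members, such counts are therefore a description only. The groups under dietary reversal lay in the range of the other 24-week groups, with lowest, median and highest Ugt8a values of 14.92, 15.26 and 15.57 in HFD-DR mice and 15.03, 15.47 and 15.62 in HFD-STZ-DR mice. By mean ± SD, the order of the groups was SD 16wk (15.88 ± 0.09, n = 5), HFD-STZ 16wk (15.76 ± 0.16, n = 5), HFD 16wk (15.67 ± 0.13, n = 7), HFD-STZ-DR 24wk (15.37 ± 0.25, n = 6), SD 24wk (15.28 ± 0.21, n = 8), HFD-DR 24wk (15.23 ± 0.21, n = 7), HFD 24wk (15.12 ± 0.18, n = 7) and HFD-STZ 24wk (15.11 ± 0.32, n = 8). Samples of each pair of neighbours in this order overlapped.

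Fa2h, which makes the hydroxylated fatty acids found in galactolipids, followed the same order of ages. Its values in SD mice were 15.75, 15.87, 15.75, 15.59 and 15.39 at 16 weeks, and ran from 14.55 over a median of 15.19 to 15.45 at 24 weeks. In HFD mice they ran from 15.28 over a median of 15.41 to 15.74 at 16 weeks and from 14.68 over 15.08 to 15.38 at 24 weeks. In HFD-STZ mice they were 15.56, 15.43, 15.35, 15.28 and 15.34 at 16 weeks and ran from 14.56 over a median of 15.05 to 15.31 at 24 weeks. The ages overlapped in every diet, with 7 of 8 SD, 6 of 7 HFD and 7 of 8 HFD-STZ samples at 24 weeks below the lowest 16-week sample of their diet. Group means of Fa2h ± SD were highest in SD 16wk (15.67 ± 0.18, n = 5), then HFD 16wk (15.45 ± 0.19, n = 7) and HFD-STZ 16wk (15.39 ± 0.11, n = 5), and the 24-week groups lay between 14.98 ± 0.22 (n = 7) in HFD-DR mice and 15.12 ± 0.30 (n = 8) in SD mice, closer to each other than 1 SD.

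Gal3st1, which sulphates galactosylceramide to sulphatide, varied more within groups. In SD mice at 16 weeks its values were 13.21, 13.25, 13.11, 12.78 and 12.74, with a mean ± SD of 13.02 ± 0.24 (n = 5). At 24 weeks the SD values ran from 12.04 over a median of 12.66 to 13.04. Gal3st1 values in HFD mice ran from 12.46 over 12.58 to 13.16 at 16 weeks and from 12.02 over 12.40 to 12.67 at 24 weeks. In HFD-STZ mice they were 12.95, 12.77, 12.72, 12.54 and 12.59 at 16 weeks and ran from 12.02 over 12.58 to 12.93 at 24 weeks. The ages overlapped in each diet for this gene.

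Sptlc2, a catalytic subunit of serine palmitoyltransferase, was lower at 24 weeks by a smaller amount than Ugt8a and Fa2h. In SD mice its values were 13.51, 13.36, 13.25, 13.26 and 13.19 at 16 weeks, and ran from 12.79 over a median of 13.08 to 13.14 at 24 weeks, with no overlap. In HFD mice Sptlc2 ran from 13.21 over 13.28 to 13.41 at 16 weeks and from 12.77 over 13.05 to 13.26 at 24 weeks. In HFD-STZ mice it was 13.44, 13.38, 13.32, 13.24 and 13.18 at 16 weeks and ran from 12.83 over 13.05 to 13.27 at 24 weeks. The samples that overlapped were 1 of 7 HFD samples and 1 of 8 HFD-STZ samples at 24 weeks, HFD replicate 2 and HFD-STZ replicate 6. The 16-week group means of Sptlc2 were 13.31, 13.30 and 13.31 in SD, HFD and HFD-STZ mice, respectively, and the 24-week means of the same diets were 13.05, 13.04 and 13.06.

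Cers2, the ceramide synthase for very long acyl chains, had values of 15.61, 15.75, 15.55, 15.42 and 15.26 in SD mice at 16 weeks. At 24 weeks its SD values ran from 14.76 over a median of 15.17 to 15.36. In HFD mice Cers2 ran from 15.17 over 15.32 to 15.47 at 16 weeks and from 14.85 over 15.07 to 15.28 at 24 weeks. In HFD-STZ mice it was 15.47, 15.49, 15.43, 15.21 and 15.30 at 16 weeks and ran from 14.83 over 15.15 to 15.32 at 24 weeks. The ages overlapped in each diet, and every 24-week sample of the 3 diets lay below the 16-week median of its diet. The other ceramide genes differed less between the ages. Sptlc1, the second subunit of serine palmitoyltransferase, had the smallest within-group standard deviation, 0.11, and group means between 11.06 in HFD-DR mice and 11.25 in HFD mice at 16 weeks. Degs1, the desaturase of the last step to ceramide, had group means between 13.72 in HFD-DR mice and 14.08 in SD mice at 16 weeks.

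Of the sphingomyelin genes, Sgms1, the sphingomyelin synthase of the Golgi, had group means between 12.55 in HFD mice at 24 weeks and 12.81 in SD mice at 16 weeks. Sgms2, the synthase that also acts at the plasma membrane, had the largest within-group standard deviation, 0.40, and values from 9.19 to 10.59 among the 8 SD samples at 24 weeks alone. Its group means, between 9.75 in SD mice at 16 weeks and 10.06 in HFD-STZ mice at 16 weeks, differed by less than this spread. Smpd1, the acid sphingomyelinase of lysosomes, had group means between 12.40 in HFD-DR mice and 12.54 in SD mice at 16 weeks, and the within-group standard deviation was 0.13. For each of these genes, samples of the groups with the highest and the lowest mean overlapped.

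The age difference was tested in each diet and as the mean over the diets. Age, the time of collection, the weeks spent on the diet and, in HFD-STZ mice, the time since streptozotocin changed together and cannot be told apart. In SD mice limma called 0 of the 10 members and 0% of 17788 genes at a Benjamini-Hochberg adjusted p under 0.05, and 7 members and 1862 genes had an unadjusted p under 0.05. The median log2 difference between 24 and 16 weeks in SD mice was -0.26 over the members and 0.01 over all genes. In HFD mice limma called 1 of 10 members, Ugt8a, and 0.0654% of 18360 genes, and the median difference was -0.20 over the members and 0.02 over all genes. In HFD-STZ mice 0 of 10 members and 0% of 17963 genes were called by limma, 4 members and 2251 genes had an unadjusted p under 0.05, and the median difference was -0.22 over the members and 0.00 over all genes. The Ugt8a log2 difference was -0.60 (SE 0.10, limma adjusted p = 0.211) in SD mice, -0.56 (SE 0.09, limma adjusted p = 0.0288) in HFD mice and -0.66 (SE 0.15, limma adjusted p = 0.279) in HFD-STZ mice. The age difference of Ugt8a in HFD mice minus that in SD mice was 0.04, with a 95% interval from -0.23 to 0.31, and that in HFD-STZ mice minus that in SD mice was -0.06, with an interval from -0.44 to 0.31. A difference between the diets in the age effect on Ugt8a was thus not detected. That call depended on single samples. It was lost in 10 of the 14 fits that left out 1 sample, namely HFD 24wk replicate 1, 3, 4, 6 or 7 or HFD 16wk replicate 2, 3, 5, 6 or 7, with the limma adjusted p running from 0.0136 to 0.106 over the 14 fits while the log2 difference stayed between -0.60 and -0.52. Calls in single diets also moved with the samples in the fit. With all 8 groups in 1 fit, limma called Ugt8a (limma adjusted p = 0.0168) and Fa2h (limma adjusted p = 0.0394) in SD mice and Ugt8a (limma adjusted p = 0.0204) in HFD-STZ mice, where calls over all genes were 45 of 17788 and 13 of 17963.

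The mean of the 3 age differences, in 1 fit of the 40 samples of these diets, was added after the data were seen. Here limma called 6 of 10 members, all lower at 24 weeks, where it called 4.58% of 18032 genes, 232 higher and 594 lower. The median log2 difference was -0.22 over the members and 0.01 over all genes. Ugt8a fell by 0.60 on the log2 scale (SE 0.07, limma adjusted p = 5.56e-07), with a 95% interval from -0.74 to -0.47, that is, to 0.658 of its 16-week level. Fa2h fell by 0.45 (SE 0.07, limma adjusted p = 0.000115) and Gal3st1 fell by 0.30 (SE 0.08, limma adjusted p = 0.0257), so that all 3 genes of the galactolipid branch were lower. Of the ceramide genes, Cers2 fell by 0.30 (SE 0.05, limma adjusted p = 0.000506) and Sptlc2 fell by 0.26 (SE 0.04, limma adjusted p = 0.000115). Degs1, with a difference of -0.13 (limma adjusted p = 0.0783), and Sptlc1, with -0.07 (limma adjusted p = 0.205), did not pass, but did when each sample was centred on its median, at -0.19 (limma adjusted p = 0.0105) and -0.14 (limma adjusted p = 0.0203), with which 1969 of 18032 genes were called instead of 826. Of the sphingomyelin genes, Sgms1 fell by 0.17 (SE 0.04, limma adjusted p = 0.0145). The differences of Sgms2 and Smpd1 were 0.03, with a 95% interval from -0.23 to 0.29, and 0.00, with a 95% interval from -0.07 to 0.08, and with centring they were at -0.04 and -0.06, not called. Of the libraries that stood apart, this fit held SD 24wk replicate 5 and HFD-STZ 24wk replicate 7. Without them, limma called the same 6 members and 978 of 18083 genes, with Ugt8a at -0.56 and Fa2h at -0.42. Gal3st1 lost its call when SD 16wk replicate 1 (limma adjusted p = 0.0533) or HFD-STZ 16wk replicate 1 (limma adjusted p = 0.0534) was left out, and Degs1 gained one without HFD-STZ 24wk replicate 7 (limma adjusted p = 0.0419).

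**Figure D2:**
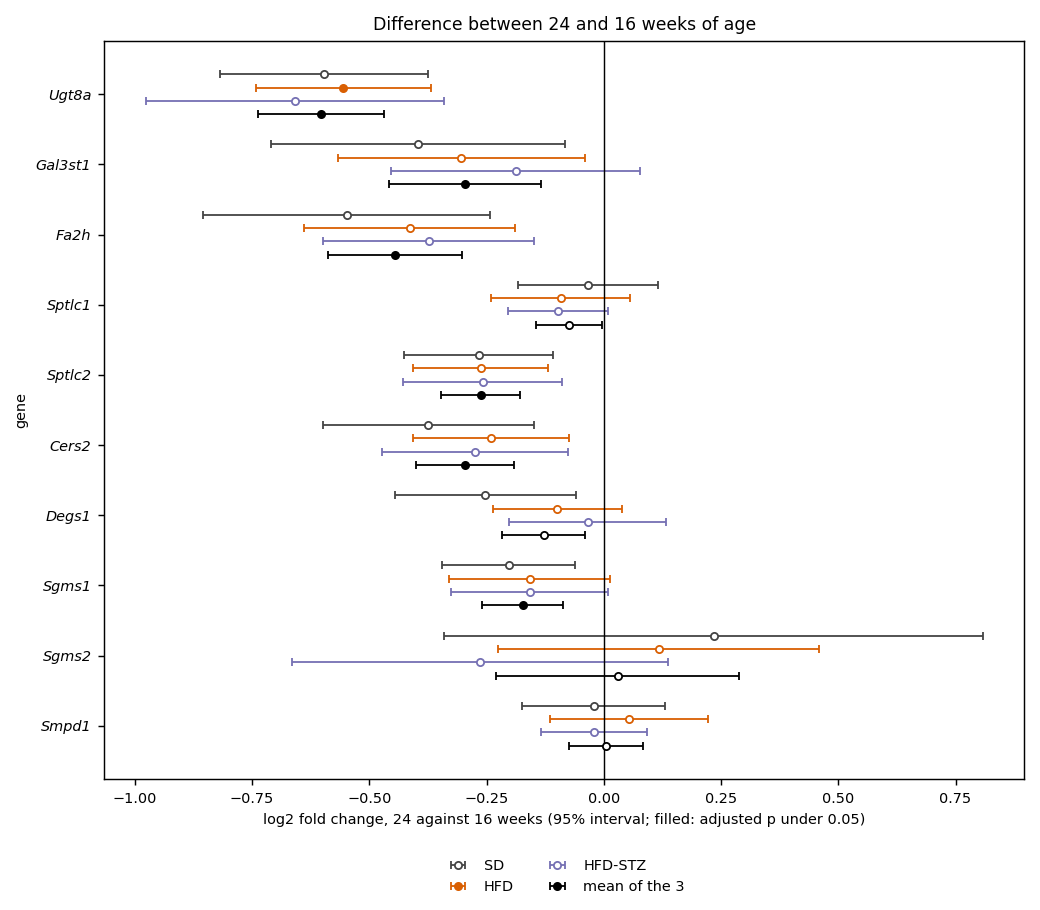
Log2 fold change of the 10 genes between 24 and 16 weeks of age in SD, HFD and HFD-STZ mice and as the mean of the 3 (limma, 95% interval), with filled points for an adjusted p under 0.05. Ugt8a lies at -0.60, -0.56 and -0.66 in the 3 diets, and Sgms2 and Smpd1 lie near 0 in their mean.

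The sample titles carry numbers that fall into 8 runs, where a gap above 3 starts a new run. No label says what these numbers or runs stand for, so whether they mark a batch is unknown. Both ages of a diet were present in 5 runs for each diet. Ugt8a, Fa2h and Sptlc2 were lower at 24 weeks in 5 of 5 runs in each of the 3 diets. Cers2 was lower in 4 of 5 runs in SD mice, 5 of 5 in HFD mice and 4 of 5 in HFD-STZ mice. Gal3st1 was lower in 5, 3 and 4 of 5 runs and Sgms1 in 4, 3 and 5 of 5 runs in these diets, in the same order. The median within-run difference of Ugt8a was -0.53 in SD mice, -0.53 in HFD mice and -0.80 in HFD-STZ mice. With the run as a covariate in 1 fit of all 8 groups, limma called 5 members and 126 of 17788 genes in SD mice, 2 members and 23 of 18360 genes in HFD mice, and 1 member and 30 of 17963 genes in HFD-STZ mice, Ugt8a among them in each diet. In that fit the mean age difference had 7 members and 1260 of 18032 genes called, Degs1 being added (limma adjusted p = 0.0159), and the F test over the groups had 5 members and 571 of 18069 genes called, Degs1 again being added (limma adjusted p = 0.0156).

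Markers of the cells of the nerve differed between the ages as well. All 14 genes of the myelinating Schwann cell list were lower at 24 weeks in the mean of the diets, limma called 7 of them, and their median log2 difference was -0.23. Pmp22, a membrane protein of peripheral myelin, fell by 0.44 (limma adjusted p = 0.00145). The score of this list, the mean log2 value of its genes, had group means of 16.38 in SD, 16.18 in HFD and 16.24 in HFD-STZ mice at 16 weeks and of 16.05, 15.94 and 16.01 at 24 weeks. Its most abundant gene was Pmp22. All 6 adipocyte genes were higher at 24 weeks, limma called 3 of them, Plin1, Cidec and Lep, and their median difference was 1.18. The adipocyte score had group means of 10.55 in SD, 12.97 in HFD and 11.73 in HFD-STZ mice at 16 weeks and of 12.42, 13.22 and 13.21 at 24 weeks, and its most abundant gene was Cfd. All 6 skeletal muscle genes were higher with a median difference of 1.46, and limma called 0 of them, with 2 at an unadjusted p under 0.05, where the group means of the score ran from 7.52 to 9.06 at 16 weeks and from 9.31 to 11.17 at 24 weeks in these diets. The most abundant muscle gene was Acta1. Of the other lists, limma called 1 of 6 genes of non-myelinating or repair Schwann cells, Scn7a, with 5 of the 6 at an unadjusted p under 0.05, and the median of this list was -0.16. It called 0 of 3 Schwann lineage genes (2 at an unadjusted p under 0.05, median -0.17) and 0 of 5 macrophage genes (3 at an unadjusted p under 0.05, median 0.37). It also called 0 of 5 endothelial genes (median 0.11), 0 of 5 perineurial and fibroblast genes (median 0.10) and 0 of 2 neuron genes tested (median 0.22), of which 0 had an unadjusted p under 0.05. The neuron value rests on HFD-STZ 24wk replicate 7, without which Prph was at 0.030 instead of 0.27 and Rbfox3 at -0.070 instead of 0.18. The most abundant genes of these lists, in the order given, were Scn7a, Sox10, Csf1r, Cldn5, Dcn and Prph. Abundance in each marker list was ranked by mean deposited values, not scaled by length. For neurons only 2 genes were ranked, since Nefl, Calca and Scn10a had values above 22. No gene of any list was at 0 in every sample. Two-sided exact permutation tests of the scores gave 0 adjusted p-values under 0.05 in 126 tests, with 11 unadjusted p-values under 0.05, and 0 and 14 without the 4 libraries that stood apart. The myelinating score differed between the ages by -0.32 in SD mice (exact p = 0.0218, adjusted p = 0.428), -0.24 in HFD mice (exact p = 0.0251, adjusted p = 0.428) and -0.23 in HFD-STZ mice (exact p = 0.0474, adjusted p = 0.480). Without the libraries that stood apart this difference was -0.26 in SD mice (exact p = 0.0265, adjusted p = 0.424) and -0.22 in HFD-STZ mice (exact p = 0.0606, adjusted p = 0.449).

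The age differences of the members were also fitted with these scores as covariates. With the muscle score alone, limma called the same 6 members and 819 of 18032 genes. With the adipocyte score alone it called 4 members, Ugt8a at -0.50, Fa2h at -0.32, Cers2 at -0.20 and Sptlc2 at -0.19, and 88 of 18032 genes. With the adipocyte and muscle scores together, limma called 3 members, Ugt8a at -0.51, Fa2h at -0.32 and Sptlc2 at -0.19, and the limma adjusted p of Ugt8a was 0.000210, while calls over all genes went from 826 to 52 of 18032. With the myelinating Schwann score it called 2 members, Ugt8a at -0.37 (limma adjusted p = 0.000243) and Fa2h at -0.16 (limma adjusted p = 0.0488), with 44 of 18032 genes called. Sptlc2 and Cers2 were then at -0.12 and -0.10, and Gal3st1 at 0.030 (limma adjusted p = 0.814), the opposite direction. What part the cell content of the nerves has in the age difference was not tested beyond these fits. In whole nerve, fewer myelinating cells and less RNA of these genes per cell cannot be told apart.

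In the comparison of the diabetes and prediabetes models with SD mice at 16 weeks, 0 members were called. For HFD against SD mice limma called 0 of 10 members and 0.00557% of 17962 genes, and 3 members and 1536 genes had an unadjusted p under 0.05. These members were Ugt8a at -0.21 (SE 0.08, limma adjusted p = 0.543), Gal3st1 at -0.34 (SE 0.14, limma adjusted p = 0.556) and Cers2 at -0.21 (SE 0.09, limma adjusted p = 0.569). For HFD-STZ against SD mice limma called 0 of 10 members and 0% of 17879 genes, with 2 members and 1504 genes at an unadjusted p under 0.05. They were Gal3st1 at -0.30 (SE 0.12, limma adjusted p = 0.586) and Fa2h at -0.28 (SE 0.10, limma adjusted p = 0.576). Gal3st1 was below the lowest SD sample in 5 of 7 HFD samples. Both comparisons share the 5 SD samples, and the median over members was -0.10 in each, where that over all genes was 0.01 for HFD and 0.02 for HFD-STZ mice. HFD-STZ against HFD mice had 0 of 10 members and 0% of 18202 genes called by limma, and 0 members and 889 genes at an unadjusted p under 0.05. Between HFD and SD mice at this age, the adipocyte score differed by 2.42 (exact p = 0.00631, adjusted p = 0.398), the non-myelinating and repair Schwann score by -0.14 (exact p = 0.0253, adjusted p = 0.428) and the myelinating score by -0.20 (exact p = 0.0492, adjusted p = 0.480). Their part in the member values was not tested beyond the fits with the adipocyte or the myelinating score as a covariate, in which 0 members were called, and the non-myelinating and repair score was not fitted.

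At 24 weeks the differences between the diets did not pass the test for any member. For HFD against SD mice limma called 0 of 10 members and 0.121% of 18191 genes, and 0 members and 1646 genes had an unadjusted p under 0.05. The count over all genes depended on the fit. It was 22 as reported, 7 with log2 of 10 reached in every sample and 120 with the adipocyte and muscle scores. The largest difference was that of Gal3st1, -0.25 with a 95% interval from -0.53 to 0.03 (limma adjusted p = 0.591), and Ugt8a was at -0.17 with an interval from -0.39 to 0.05. For HFD-STZ against SD mice limma called 0 of 10 members and 0.0336% of 17846 genes, with 0 members and 1069 genes at an unadjusted p under 0.05. Ugt8a was at -0.18 with an interval from -0.46 to 0.10, and Sgms2 at -0.18 with an interval from -0.64 to 0.28. Over single samples left out Ugt8a lay between -0.26 and -0.12 and Sgms2 between -0.29 and -0.09. The neuron score differed by 1.03 in this comparison (exact p = 0.0107, adjusted p = 0.428), and by 0.28 without the libraries that stood apart (exact p = 0.0390, adjusted p = 0.424). Without them the adipocyte score differed by 1.14 (exact p = 0.0478, adjusted p = 0.424). For HFD-STZ against HFD mice limma called 0 of 10 members and 0% of 18117 genes, with 0 members and 1013 genes at an unadjusted p under 0.05. These comparisons share samples, the SD mice in the former and the HFD and HFD-STZ mice in the latter.

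Dietary reversal was compared with the continued high-fat diet in each model. For HFD-DR against HFD mice limma called 0 of 10 members and 0.0108% of 18475 genes. That is 2 genes, against 0 with no trend and 30 with the run of sample numbers as a covariate. In the fit as reported, 1 member and 1242 genes had an unadjusted p under 0.05. This member was Degs1, at -0.19 (SE 0.07, limma adjusted p = 0.655). Its HFD-DR values ran from 13.53 over a median of 13.74 to 13.91 and its HFD values from 13.76 over 13.93 to 14.09, so that 6 of 7 HFD-DR samples were below the lowest HFD sample. In the diabetes model, for HFD-STZ-DR mice against those without reversal, limma called 0 of 10 members and 0.084% of 17862 genes, with 0 members and 1157 genes at an unadjusted p under 0.05. The count over all genes depended on the samples and the fit, 15 as reported, 145 of 17797 without the libraries that stood apart, 2 with no trend and 0 with the adipocyte score. Ugt8a was at 0.26 with a 95% interval from -0.06 to 0.59, and from 0.20 to 0.34 over single samples left out. Cers2 was at 0.13 with an interval from -0.11 to 0.37, and from 0.09 to 0.22 over single samples left out, the highest value being that without HFD-STZ-DR 24wk replicate 4. The median over members was -0.00 in HFD-DR against HFD mice and 0.09 here, where that over all genes was -0.00 and 0.01. These comparisons share the HFD and HFD-STZ mice with those against SD mice. The adipocyte score differed under reversal by -1.22 in the prediabetes model (exact p = 0.0798, adjusted p = 0.480) and by -2.24 in the diabetes model (exact p = 0.00300, adjusted p = 0.378), and the muscle score by 2.77 in the prediabetes model (exact p = 0.0746, adjusted p = 0.480). Without the libraries that stood apart, the endothelial score differed by -0.32 in the diabetes model (exact p = 0.00758, adjusted p = 0.318). The non-myelinating and repair Schwann score then differed by 0.26 in the prediabetes model (exact p = 0.0198, adjusted p = 0.424). The part of the adipocyte and muscle scores in the member values was not tested beyond the fits with them as covariates, in which 0 members were called. The other 2 scores were not fitted. Over these 4 comparisons at 24 weeks, the 40 member intervals reached from -0.64 to 0.59, and 1 of them, that of Degs1 under reversal in HFD mice, did not contain 0.

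**Figure D3:**
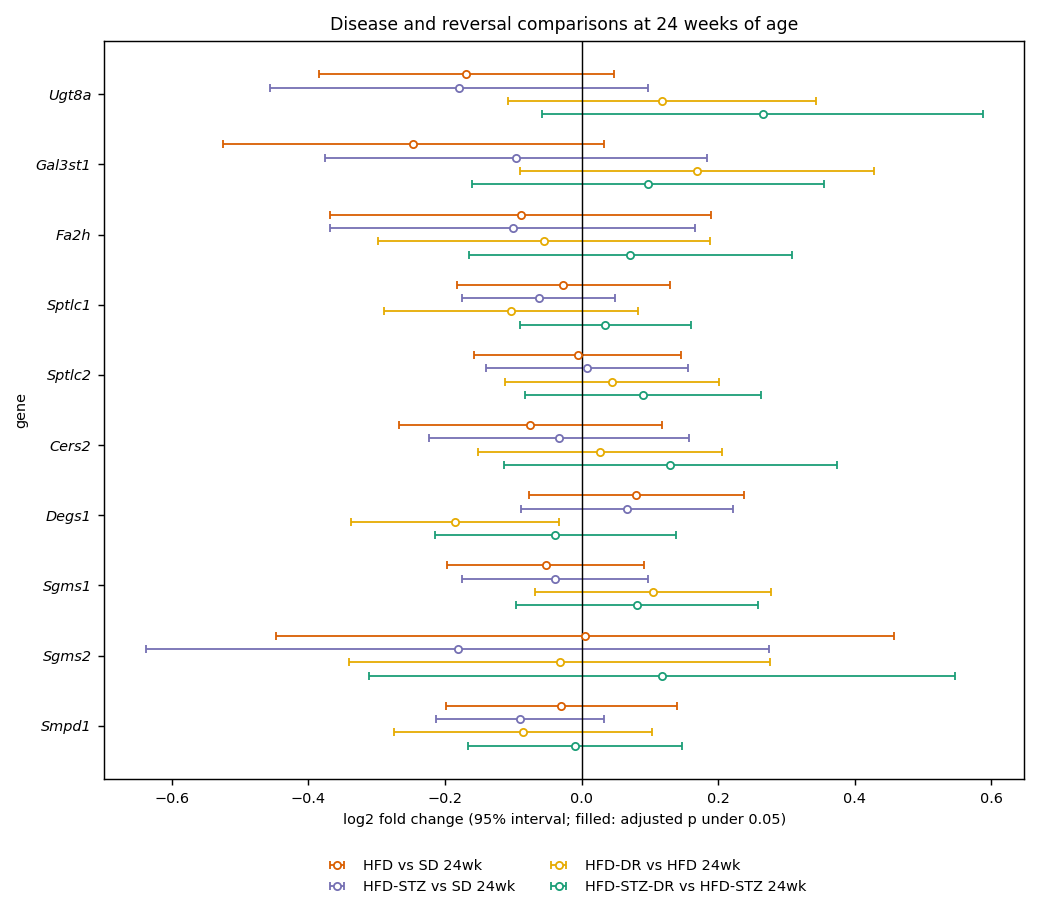
Log2 fold change of the 10 genes in the disease and reversal comparisons at 24 weeks of age (limma, 95% interval), where an open point has an adjusted p of 0.05 or more. All 40 points are open, between -0.25 for Gal3st1 and 0.26 for Ugt8a.

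The mice under dietary reversal were also set against SD mice and against each other. For HFD-DR against SD mice limma called 0 of 10 members and 0% of 18145 genes, and 0 members and 933 genes had an unadjusted p under 0.05. For HFD-STZ-DR against SD mice it called 0 of 10 members and 0% of 17889 genes, with 0 members and 1639 genes at an unadjusted p under 0.05. Here the adipocyte score differed by -1.45 (exact p = 0.0173, adjusted p = 0.428) and the endothelial score by -0.21 (exact p = 0.0360, adjusted p = 0.480). Between HFD-STZ-DR and HFD-DR mice it called 0 of 10 members and 0% of 18189 genes, with 0 members and 652 genes at an unadjusted p under 0.05. In these comparisons the median over members was -0.06, 0.01 and 0.09, where that over all genes was -0.01 in each.

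Whether the effects of diet differed by age or model was tested as an interaction. For the HFD effect by age limma called 0 of 10 members and 0% of 18087 genes, with 0 members and 302 genes at an unadjusted p under 0.05. For the HFD-STZ effect by age it called 0 of 10 members and 0% of 17871 genes, with 0 members and 836 genes at an unadjusted p under 0.05. For the reversal effect by streptozotocin it called 0 of 10 members and 0% of 18161 genes, with 0 members and 310 genes at an unadjusted p under 0.05. The smallest unadjusted p of a member was that of Degs1 in the HFD-STZ effect by age, a difference of 0.22 between the effects with a 95% interval from -0.02 to 0.46 (limma adjusted p = 0.756). Over all 8 groups, the limma F test called 4 of 10 members and 1.97% of 18069 genes. The members called were Ugt8a (limma adjusted p = 1.27e-05), Fa2h (limma adjusted p = 0.000546), Sptlc2 (limma adjusted p = 0.00555) and Cers2 (limma adjusted p = 0.0177). Adipocyte markers also passed this test, namely Lep (limma adjusted p = 4.23e-05), Cidec (limma adjusted p = 0.0112), Fabp4 (limma adjusted p = 0.0122) and Adipoq (limma adjusted p = 0.0265). So did Jun, of the non-myelinating or repair Schwann list (limma adjusted p = 0.00138), and Pmp22 (limma adjusted p = 0.0148). Without the 4 libraries that stood apart 6 members and 638 of 18092 genes were called, against 356 genes with them, Degs1 (limma adjusted p = 0.0363) and Gal3st1 (limma adjusted p = 0.0475) being added. With the adipocyte score, the muscle score or both as covariates the F test called 3 members, Cers2 being lost each time, and 216, 308 and 151 of 18069 genes. With the myelinating Schwann score it called only Ugt8a and Fa2h among the members, Sptlc2 and Cers2 being lost, and 225 of 18069 genes. Without SD 16wk replicate 1 or 2 it called 3 members, Cers2 being lost. It called 5, Degs1 being added, without HFD 16wk replicate 1, SD 24wk replicate 2, HFD-STZ 24wk replicate 1 or 7, HFD-DR 24wk replicate 7 or HFD-STZ-DR 24wk replicate 4, with a limma adjusted p for Degs1 from 0.0379 to 0.0466.

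Of 53 other genes of the pathway, 49 were tested in the mean age difference and limma called 9, all lower at 24 weeks, where it called 4.58% of all 18032 genes. The median log2 difference over the 49 genes was -0.03, against 0.01 over all genes. The genes called were 5 of 13 tested in the list of ceramide synthesis, 1 of 6 in that of sphingomyelin, 1 of 6 in that of glycolipid synthesis, 1 of 13 in that of glycolipid breakdown and 1 of 11 in that of ceramide breakdown and sphingosine phosphate. In the ceramide branch Elovl4, an elongase of very long acyl chains, fell by 0.49 (limma adjusted p = 0.000913), Elovl1, another elongase, fell by 0.28 (limma adjusted p = 0.0277), Cers4 fell by 0.27 (limma adjusted p = 0.000580), Kdsr, the reductase after serine palmitoyltransferase, fell by 0.17 (limma adjusted p = 0.000685) and Cers5 fell by 0.12 (limma adjusted p = 0.0300). Samd8, related to the sphingomyelin synthases, fell by 0.19 (limma adjusted p = 0.0323), and B4galt6, a lactosylceramide synthase, fell by 0.20 (limma adjusted p = 0.0319). Galc, which removes the galactose that Ugt8a adds, fell by 0.17 (limma adjusted p = 0.0297), and Asah1, the acid ceramidase, fell by 0.13 (limma adjusted p = 0.0353). Genes of synthesis and of breakdown were thus both among those lower at 24 weeks. In the F test over the groups limma called 3 of the pathway genes, Cers4, Elovl4 and Kdsr, and 1.97% of all 18069 genes. In the 14 comparisons between pairs of groups and the 3 interactions limma called 0 of the pathway genes tested, with 53 of 845 values at an unadjusted p under 0.05, that is 6.27%, against 6.49% of the values of all genes tested.

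The pathway genes with the smallest p in the disease and reversal comparisons at 24 weeks did not pass the threshold either. For HFD against SD mice they were St8sia1 at 0.56 (limma adjusted p = 0.421), Acer2 at 0.50 (limma adjusted p = 0.453) and St3gal5 at -0.50 (limma adjusted p = 0.521). For HFD-STZ against SD mice they were Acer2, an alkaline ceramidase, at 0.59 (limma adjusted p = 0.623), Smpd2 at 0.24 (limma adjusted p = 0.636) and Col4a3bp, the ceramide transfer protein, at -0.16 (limma adjusted p = 0.832). Under reversal in the prediabetes model they were Ormdl2 at -0.20 (limma adjusted p = 0.728), Col4a3bp at -0.19 (limma adjusted p = 0.737) and Ormdl3 at -0.44 (limma adjusted p = 0.765). Under reversal in the diabetes model they were Ormdl3, a regulator of serine palmitoyltransferase, at -0.62 (limma adjusted p = 0.221), Smpd3, a neutral sphingomyelinase, at -1.08 (limma adjusted p = 0.285) and Acer2 at -0.39 (limma adjusted p = 0.711).

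Within groups, many pairs of members were correlated from mouse to mouse. Correlations were computed over the 53 samples on deviations from the group means, for 45 pairs, with p from 100000 permutations within groups. Pearson's r was positive in 32 pairs, and by r 26 pairs had an adjusted p under 0.05, 24 of them positive and 2 negative. These 26 pairs also passed by Spearman's rho. By rho alone, Sgms2 with Cers2 (rho = -0.33, adjusted permutation p = 0.0457), Sgms2 with Sptlc2 (rho = -0.32, adjusted permutation p = 0.0459) and Gal3st1 with Smpd1 (rho = -0.32, adjusted permutation p = 0.0488) passed as well. Counts of pairs here are by r. Positive r made up 71.1% of the member pairs, with a median r of 0.41, where over all pairs of 18069 genes it made up 48.6%, with a median r of -0.010. An r of at least 0.38 in size, the smallest among the pairs that passed, was found in 57.8% of member pairs and in 19.5% of all gene pairs. The genes of these pairs were not matched to the members by level. The highest was that of Gal3st1 with Fa2h (r = 0.88, rho = 0.86, permutation p = 1e-05 for each, the smallest these permutations can give, adjusted p = 3.21e-05), and r was 0.84 without the 2 samples farthest from the median of Gal3st1. Ugt8a correlated with Cers2 (r = 0.84, rho = 0.84) and Sptlc2 with Cers2 (r = 0.82, rho = 0.82), with the same permutation p and, without 2 samples, r = 0.84 and r = 0.83. Sgms2 correlated negatively with Gal3st1 (r = -0.64, rho = -0.67, adjusted permutation p = 3.21e-05 for both, r = -0.65 without 2 samples) and with Fa2h (r = -0.50, rho = -0.54, adjusted permutation p = 0.00137 and 0.000265, r = -0.50 without 2 samples). For Sgms2 with Ugt8a, the other galactolipid gene, r did not pass (r = -0.16, rho = -0.16, adjusted permutation p = 0.361 and 0.368, r = -0.04 without 2 samples). Sgms2 correlated positively with Smpd1 (r = 0.58, rho = 0.57, adjusted permutation p = 0.000141 and 0.000265, r = 0.53 without 2 samples). A version on deviations from the means of groups and of runs of sample numbers, with permutation within runs, was chosen after the data were seen. In it 24 of 45 pairs had an adjusted permutation p under 0.05, 22 positive and 2 negative, 23 of them among the 26 above, and the median r was 0.31. Gal3st1 with Fa2h was then at r = 0.85 (rho = 0.83), Ugt8a with Cers2 at r = 0.82 (rho = 0.84) and Sptlc2 with Cers2 at r = 0.78 (rho = 0.80), each with an adjusted permutation p of 6.43e-05 for r and 4.09e-05 for rho, and r without 2 samples was 0.84, 0.83 and 0.78. Sgms2 was at r = -0.69 with Gal3st1 (rho = -0.66, adjusted permutation p = 6.43e-05 and 0.000187, r = -0.61 without 2 samples) and at r = -0.57 with Fa2h (rho = -0.52, adjusted permutation p = 0.00220 and 0.00425, r = -0.48 without 2 samples). With Smpd1 it was at r = 0.49 (rho = 0.38, adjusted permutation p = 0.00531 and 0.0403, r = 0.45 without 2 samples), and with Ugt8a at r = -0.24 (rho = -0.21, adjusted permutation p = 0.272 and 0.302, r = -0.23 without 2 samples). Of the 6 runs with at least 6 samples, r of Gal3st1 with Fa2h was positive in 6 and r of Sgms2 with Gal3st1 negative in 5, where it ran from -0.94 to 0.47. Without the 4 libraries that stood apart, 26 of 45 pairs had an adjusted permutation p under 0.05 over 49 samples, 22 positive and 4 negative, 24 of them among the 26 above, and the median r was 0.33. Those added by r, which had already passed by rho over the 53 samples, were Sgms2 with Cers2 (r = -0.49, rho = -0.51, adjusted permutation p = 0.00166 and 0.00118, r = -0.41 without 2 samples) and with Sptlc2 (r = -0.43, rho = -0.45, adjusted permutation p = 0.00409 and 0.00339, r = -0.43 without 2 samples). Gal3st1 was then correlated with Fa2h (r = 0.84, rho = 0.86, adjusted permutation p = 3.46e-05 and 4.09e-05, r = 0.82 without 2 samples) and negatively with Sgms2 (r = -0.79, rho = -0.80, adjusted permutation p = 3.46e-05 and 4.09e-05, r = -0.77 without 2 samples). These samples share a tissue whose cell content varies, and the part of that in the correlations was not tested.

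**Figure D4:**
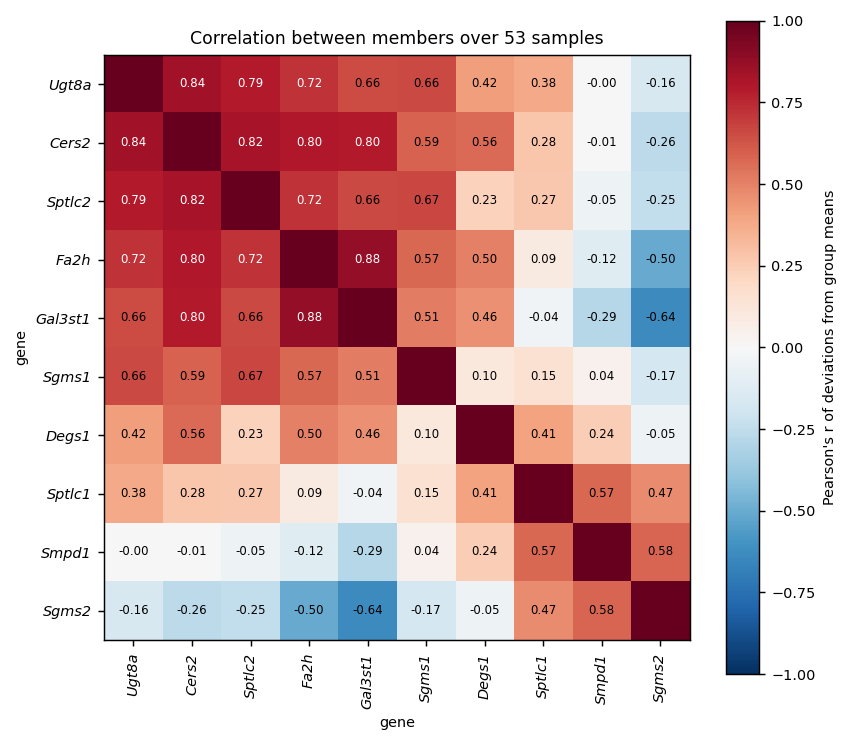
Pearson's r between the 10 genes over 53 samples, on deviations of log2 values from group means, with both axes listing the genes and colour giving r from -1 to 1. Gal3st1 and Fa2h reach 0.88, and Sgms2 is at -0.64 with Gal3st1.

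The genes most like each member were those with the highest r over the same deviations among 18068 genes, given as a description. For Ugt8a they were Gpr137b (r = 0.91), Shroom2 (0.91) and Mboat2 (0.90), and for Fa2h the myelin genes Cnp (r = 0.95), Mal (0.94) and Pmp22 (0.93). For Gal3st1 they were Pcbp4 (r = 0.95), Insc (0.94) and Tspan15 (0.94), for Cers2 Chst2 (r = 0.91), Sema3b (0.91) and Stard5 (0.90), and for Sptlc2 Tgfa (r = 0.88), Osbpl5 (0.88) and Gldn (0.88). For Degs1 they were Ywhaq (r = 0.93), Nipsnap3b (0.89) and Arl6ip1 (0.85), and for Sgms1 Fut8 (r = 0.82), C1ql3 (0.81) and Ssr3 (0.80). For Sgms2 they were Lpar1 (r = 0.92), Zfp521 (0.91) and Fam102b (0.91), for Smpd1 Tollip (r = 0.81), Rpn2 (0.81) and Txndc5 (0.81), and for Sptlc1 App (r = 0.73), Trappc12 (0.73) and Selenon (0.72). An r above 0.8 was reached by 335 genes with Sgms2, 215 with Gal3st1, 130 with Fa2h, 89 with Cers2, 54 with Sptlc2, 51 with Ugt8a, 17 with Degs1, 4 with Smpd1, 2 with Sgms1 and 0 with Sptlc1.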

How the data were processed

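The authors extracted total RNA from mouse sciatic nerves, and per the study's methods the sequenced libraries were made with polyA+ selection. Per the study's methods and the submitters' processing notes, reads were aligned to mm10 with HISAT2 and counted with featureCounts, and DESeq2 is named, with versions not given. The deposited log2 values were normalized by the authors in a way the sources used here do not name. They were used as deposited, and tests left out 25 genes because a value of theirs exceeded 22. Pairs of groups (14 comparisons), 3 interactions and all 8 groups were compared with limma 3.58.1 (R 4.3.3, moderated test with trend, two-sided, Benjamini-Hochberg adjustment over all genes tested), for genes with a mean of at least log2 of 10. The mean age difference over 3 diets and the fits without 4 samples were added after the data were seen. Scores, correlations and figures used Python 3.11.15, numpy 2.4.6, scipy 1.17.1, pandas 2.3.3 and matplotlib 3.10.9. Fits were also run with other filters, priors, centring, sample sets and covariates. Named were all 10 members, pathway genes past the threshold, the 3 pathway genes of smallest p per disease or reversal comparison at 24 weeks, the 3 genes most like each member, and the most abundant marker of each list. Some of the markers called in the mean age difference, and those called in the F test, were named after their values were seen. Values of some markers are not reported here. Replicates were numbered in the order of the deposit. The members and lists were chosen with earlier results of these data known.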

Additional observations from a re-analysis of the deposited data

Results flagged for a closer look

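Single samples lay far from the rest of their group, by the gap to the nearest sample over the group's range, in 10 of 152 groups of values, and chance gives about 1 in 20. Among the members, Ugt8a was 15.72 in SD 16wk replicate 5, the lowest of its group, and Degs1 was 13.82 in HFD 16wk replicate 1. Sptlc1 was 10.80 in HFD 24wk replicate 3 and 10.71 in HFD-DR 24wk replicate 1. Sptlc2 was 12.79 in SD 24wk replicate 5 and 12.88 in HFD-STZ-DR 24wk replicate 4, the samples with the highest skeletal muscle scores. Each of these values was the lowest of its group. Among the marker scores, the skeletal muscle score was 14.33 in SD 16wk replicate 2, the highest of its group, and the perineurial and fibroblast score was 13.77 in HFD 16wk replicate 7, the lowest. The neuron score was 6.47 in HFD 16wk replicate 5, the lowest of its group, and 12.84 in HFD-STZ 24wk replicate 7, the highest.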

How the results depend on the processing

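For the 11 comparisons at 1 age and the 3 interactions, limma called 0 members under every alternative run. Calls over all genes reached 120 of 18191 for HFD against SD mice at 24 weeks, with the adipocyte and muscle scores. For HFD-STZ-DR against HFD-STZ mice they reached 145 of 17797, without the libraries that stood apart. Fits that left out single samples are not in these counts over all genes. Of the log2 differences of single members, 5020 kept direction and side of the threshold, 351 that were not called changed sign, 24 lost and 14 gained a call, and 1 reversed. In SD mice the age comparison called 2 members (45 of 17788 genes) with all 8 groups in 1 fit and 5 (126 genes) with the run of sample numbers as a covariate, against 0 members and 0 genes as reported. In HFD mice it called 2 (23 of 18360 genes) with the run, and 0 with no trend (1 gene), with median centring (6 genes; Ugt8a limma adjusted p = 0.0564 and 0.0758) or with the myelinating Schwann score (0 genes), against 12 genes as reported. In HFD-STZ mice it called 1, Ugt8a, in either fit of 8 groups (13 of 17963 genes, and 30 with the run). The mean age difference called 6 members (819 of 18032 genes) with the muscle score, 4 (88 genes) with the adipocyte score, 3 (52 genes) with both and 2 (44 genes, against 826 as reported) with the myelinating Schwann score, with which Gal3st1 reversed to 0.030, and 5 to 7 over single samples left out. Without a filter on low values, Gal3st1 was not called (limma adjusted p = 0.0683; 415 of 47363 genes). The F test called 2 members (225 of 18069 genes, against 356) with the myelinating Schwann score, 3 with the adipocyte score (216 genes), the muscle score (308 genes) or both (151 genes), and 3 to 5 over single samples left out. Over single samples left out the HFD age comparison called 0 to 1. Of the 45 correlations of members, by Pearson's r, 3 lost and 1 gained a call with the run of sample numbers taken out, and 3 that did not pass changed sign. Without the 4 libraries that stood apart 2 lost and 2 gained a call and 2 that did not pass changed sign. The cause was not tested. Depth per gene is unknown, so the precision was taken from the spread between samples. Technical noise and differences between mice were not separated in it. Groups of 6 to 8 mice leave intervals that reach from -0.64 to 0.59 in the disease and reversal comparisons at 24 weeks.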
